A study of Homo sapiens with 6 samples.

Results

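The genes that encode enzymes adding methyl groups to histones or taking them off again were followed through the induction of human neural crest from embryonic stem cells. Members were chosen by symbol alone: the numbered KDM genes apart from KDM5D, the SETD and SETDB genes, MLL to MLL5, EHMT1 and EHMT2, the SUV39H and SUV420H genes, the numbered PRMT genes, SMYD1 to SMYD5, and WHSC1, WHSC1L1, NSD1, ASH1L and DOT1L. This gave 58 of the 23284 genes in the authors' table, of which 57 code for protein. The remaining member, KDM5B-AS1, is a noncoding antisense gene that the symbol rule takes in. By class, 33 members are SET domain genes or DOT1L, 8 are arginine methyltransferases and 16 are lysine demethylases.

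All RNA came from WA01, an established human embryonic stem cell line of wildtype genotype, so every value below describes 1 line. The 6 libraries form 3 groups of 2: undifferentiated ES cells on day 0, pre-neural crest cells (preNC) on day 3 and neural crest cells (NC) on day 5. The growth protocol in the labels gives plating at 20000 cells per cm2 on Matrigel, 3 µM CHIR99021, an inhibitor of GSK3 that activates WNT signalling, and 10 µM of the ROCK inhibitor Y-27632 at the start. It is written alike for all libraries, day 0 included. The table holds 1 value per gene and day in FPKM, a count of fragments divided by transcript length and sequencing depth, so the spread between replicates and the depth of each library are unknown, and the labels do not say whether replicates were separate cultures.

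Methyl marks on histone tails work according to their position. H3K4 methylation marks active promoters and enhancers, H3K36 methylation the bodies of transcribed genes, and H3K9 and H3K27 methylation silent chromatin. Lysine methyltransferases mostly carry a SET domain (DOT1L does not), the PRMT enzymes methylate arginines, and demethylases use either FAD (KDM1A and KDM1B) or a JmjC domain with iron and oxoglutarate. In embryonic stem cells these enzymes act on the bivalent promoters of developmental genes, which carry both H3K4 and H3K27 methylation and are resolved as cells choose a fate.

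The results turn on a small set of members, and the 250 bases before the RefSeq start of 5 of them are shown because these are the coding members that differed at least 2-fold in FPKM by day 3. Positions are on GRCh38.p14, the build of the sequence table, and not on hg19, the build of the expression table. They are chrX:44872938-44873187 for KDM6A, chr17:7833967-7834216 for the first of 2 KDM6B starts, chr9:6757723-6757972 for KDM4C, chr1:214280909-214281158 for SMYD2, and chr12:3381099-3381348 and chr12:3490953-3491202 for the upstream and downstream starts of PRMT8, all on the plus strand. Sequences are from RefSeq, written 5′ to 3′, with every CG dinucleotide in capitals.
KDM6A: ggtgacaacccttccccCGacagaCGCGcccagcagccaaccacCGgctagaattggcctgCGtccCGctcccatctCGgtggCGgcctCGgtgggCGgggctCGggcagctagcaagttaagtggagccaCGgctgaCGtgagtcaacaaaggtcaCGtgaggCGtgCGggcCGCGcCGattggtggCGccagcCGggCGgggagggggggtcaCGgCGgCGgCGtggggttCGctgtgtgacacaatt
KDM6B: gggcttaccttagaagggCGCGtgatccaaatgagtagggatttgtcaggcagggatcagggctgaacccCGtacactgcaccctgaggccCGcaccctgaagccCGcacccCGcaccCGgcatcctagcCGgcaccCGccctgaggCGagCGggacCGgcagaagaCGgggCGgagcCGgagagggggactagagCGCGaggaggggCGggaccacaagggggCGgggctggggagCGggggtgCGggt
KDM4C: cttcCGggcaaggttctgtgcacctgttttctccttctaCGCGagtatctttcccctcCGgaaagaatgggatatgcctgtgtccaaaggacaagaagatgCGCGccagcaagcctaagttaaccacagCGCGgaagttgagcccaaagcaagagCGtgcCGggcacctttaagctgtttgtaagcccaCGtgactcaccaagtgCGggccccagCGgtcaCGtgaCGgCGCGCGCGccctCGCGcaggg
SMYD2: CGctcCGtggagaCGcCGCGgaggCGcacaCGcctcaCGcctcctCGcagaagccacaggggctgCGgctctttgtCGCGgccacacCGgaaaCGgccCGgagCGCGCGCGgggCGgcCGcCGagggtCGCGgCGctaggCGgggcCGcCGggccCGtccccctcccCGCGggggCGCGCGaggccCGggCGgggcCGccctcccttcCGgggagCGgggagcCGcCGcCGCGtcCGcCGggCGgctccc
PRMT8 upstream start: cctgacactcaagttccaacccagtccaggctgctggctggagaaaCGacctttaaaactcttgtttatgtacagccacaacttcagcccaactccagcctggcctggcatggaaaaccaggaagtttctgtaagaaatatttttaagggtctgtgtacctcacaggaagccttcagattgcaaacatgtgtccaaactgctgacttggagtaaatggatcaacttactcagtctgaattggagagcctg
PRMT8 downstream start: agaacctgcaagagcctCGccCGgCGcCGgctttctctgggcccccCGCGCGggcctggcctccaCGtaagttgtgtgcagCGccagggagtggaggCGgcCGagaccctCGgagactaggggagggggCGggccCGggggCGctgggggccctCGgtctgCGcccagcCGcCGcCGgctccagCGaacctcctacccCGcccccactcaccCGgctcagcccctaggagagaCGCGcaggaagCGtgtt

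In these sequences SMYD2 stands out with 46 CG dinucleotides, while the upstream start of PRMT8 has 1 and its downstream start 26. KDM6A has 27, the first start of KDM6B 21 and KDM4C 21. The second start of KDM6B, not shown, has 1. Of the 58 members, 54 were found in the promoter table, with 75 start sites. CG dinucleotides reached at least 0.6 of the number expected from base composition at 66 of these 75 windows (88.0%), against 47.5% of all 35116 windows of the same length. The E-box CACGTG, which reads alike on both strands and itself holds a CG, was found in 11 of the 75 windows (14.7%) against 6.34% of all windows. The 11 belong to 10 members, since 2 overlapping windows of SETDB1 both hold it. KDM4C holds the E-box 2 times and KDM6A 1 time, as caCGtg in the lines above. The set of all windows was not matched to the members for expression, windows of a gene can overlap, and none of these shares was tested. The octamer ATGCAAAT and the TCF/LEF motif CTTTGAT, searched on both strands, were in no member window, and in 1.63% and 2.26% of all windows.

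Most members were expressed throughout. At an FPKM of at least 1 were 54 of the 58 on day 0 and 56 on each of day 3 and day 5, against 57.7%, 56.9% and 57.1% of all genes in the table. The median member stood at 15.5, 14.01 and 13.2. Below 1 on day 0 were PRMT8, SETD7, SMYD1 and KDM4DL. SMYD1, a muscle methyltransferase, stayed below 0.05 on all days, and KDM4DL, a copy of KDM4D, was listed at 0 on day 0 and day 3 and at 0.00981 on day 5. Neither was tested, which left 56 tested members in each comparison. PRMT1, the main enzyme for asymmetric arginine dimethylation, was by far the most abundant member.

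A member is called higher or lower where the Cuffdiff q in the authors' deposited table is below 0.05, and log2 ratios are given ± the standard error that the deposited test statistic implies. By day 3, 10 of 56 tested members were called, against 20.6% of all tested genes. Of these, 5 were higher (8.93% of members, 8.96% of all genes) and 5 lower (8.93% of members, 11.6% of all genes). Between day 3 and day 5 there were 3 calls (5.36%), against 12.6% of all tested genes, with 2 members higher (5.93% of all genes) and 1 lower (6.68%). Day 5 against day 0, which reuses the same libraries, gave 13 calls (23.2%), against 27.0% of all tested genes, with 9 higher (12.2%) and 4 lower (14.7%). Most members are well expressed, and among genes at an FPKM of at least 1 on both days the shares lay closer together. There 9 of 54 members (16.7%) were called by day 3, against 16.2% of all such genes, 3 of 56 (5.36%) from day 3 to day 5, against 10.0%, and 11 of 54 (20.4%) from day 0 to day 5, against 22.3%. None of these differences in share was tested. Across the comparisons 16 members were called at least 1 time and 40 of the tested members never. Of those 40, the unadjusted Cuffdiff p was below 0.05 for 0 by day 3, 1 from day 3 to day 5 and 5 over the whole course. The share of all tested genes called at least 1 time was not computed, so the counts of 16 and 40 have no background beside them.

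**Figure D1:**
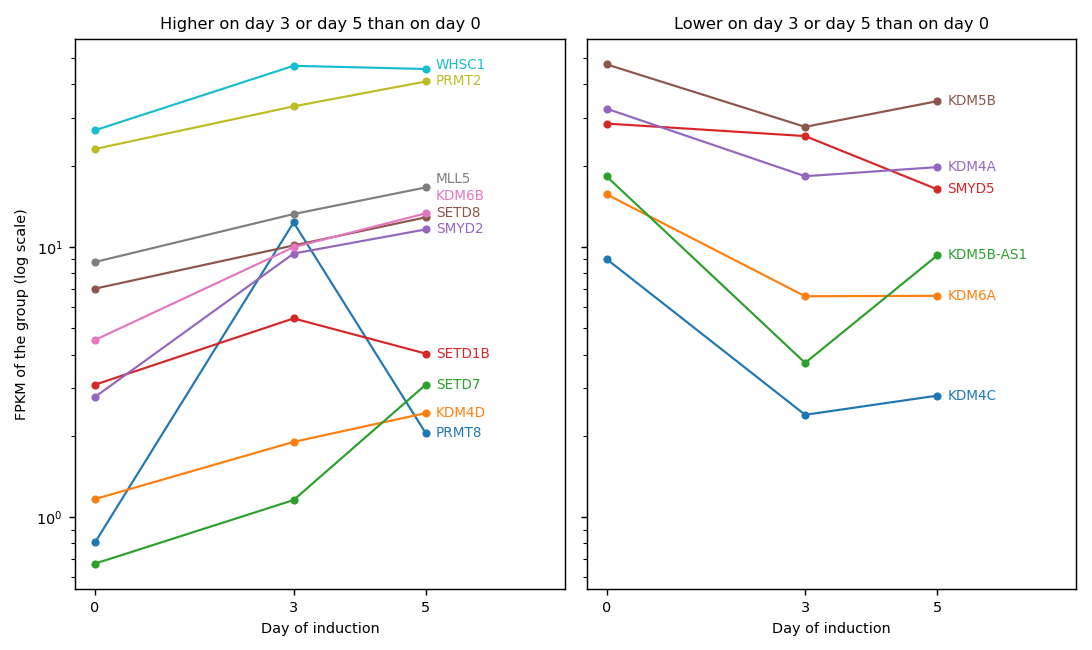
Group FPKM (log axis) on day 0, day 3 and day 5 for the 16 members called in at least 1 comparison, 1 line per gene and 1 point per day, each point the authors' value over 2 libraries, with no error bar. PRMT8 peaks at 12.3 on day 3, KDM6B climbs to 13.3 on day 5, and KDM6A and KDM4C are at 6.60 and 2.82 on day 5, below their day 0 values.

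The H3K27 demethylases moved in opposite directions. KDM6A (also called UTX; chromosome X, 44732423 to 44971845 on hg19), which also works within the MLL3 and MLL2 complexes, stood at 15.7 on day 0, 6.58 on day 3 and 6.60 on day 5. KDM6B (JMJD3; chromosome 17, 7743235 to 7758118), an inducible enzyme, stood at 4.53, 9.99 and 13.3 on the same days. KDM6A was thus high on day 0 alone, and KDM6B was lowest there and highest on day 5. In bulk RNA such as this, fewer cells of a type and less RNA per cell cannot be told apart. KDM6A fell 2.38-fold by day 3 (log2 -1.25 ± 0.42) and KDM6B rose 2.20-fold (log2 1.14 ± 0.33), both at q = 0.000596 from the authors' deposited table. Neither was called between day 3 and day 5, where the log2 ratios were 0.00 ± 0.42 for KDM6A and 0.42 ± 0.34 for KDM6B. The ratio of KDM6A to KDM6B went from 3.46 on day 0 to 0.66 on day 3 and 0.50 on day 5. Among 25 pairs of related members compared, this was the one pair with opposite calls, both by day 3 and from day 0 to day 5.

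In the KDM4 family of H3K9 demethylases, KDM4A and KDM4C fell and KDM4D ended higher. KDM4C (chromosome 9, 6720863 to 7175648) went from 9.03 on day 0 to 2.39 on day 3 and 2.82 on day 5. It fell 3.77-fold by day 3 (log2 -1.92 ± 0.45, q = 0.000596 from the authors' deposited table) and did not recover by day 5. KDM4A (chromosome 1, 44115797 to 44173012) went from 32.5 to 18.3 and 19.8, a smaller fall by day 3 (log2 -0.83 ± 0.38, q = 0.0181 from the authors' deposited table). Its locus overlaps LOC100132774, which was at or below 4.12 on every day. KDM4B stood at 19.9, 18.0 and 16.2 and was not called. KDM4D stood at 1.17, 1.90 and 2.43 and was called only from day 0 to day 5 (log2 1.06 ± 0.56, q = 0.0471 from the authors' deposited table). KDM4A was therefore 3.60 times as abundant as KDM4C on day 0 and 7.01 times on day 5.

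KDM5B, an H3K4 demethylase, and the antisense gene next to it were both lower on day 3. KDM5B (chromosome 1, 202696532 to 202777549) went from 47.5 on day 0 to 27.9 on day 3 and 34.7 on day 5. Its fall by day 3 was called (log2 -0.77 ± 0.40, q = 0.0225 from the authors' deposited table), and day 5 was not called against either other day. KDM5B-AS1 (chromosome 1, 202780074 to 202781041), which starts 2524 bases beyond the KDM5B locus, went from 18.3 to 3.73 and back to 9.33. It fell 4.90-fold by day 3 (log2 -2.29 ± 0.59, q = 0.000596 from the authors' deposited table) and rose 2.50-fold by day 5 (log2 1.32 ± 0.56, q = 0.0237 from the authors' deposited table). The strandedness of the libraries is not given in the sources used here. KDM5A, at 3.13, 4.73 and 5.73, and KDM5C, at 20.7, 18.0 and 18.8, were not called in any comparison. The locus of KDM5A overlaps CCDC77, at 17.8, 26.0 and 24.2, so the KDM5A value is uncertain.

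The other demethylases were not called. KDM1A (LSD1), the FAD-dependent H3K4 demethylase of the CoREST complex, was the most abundant demethylase at 121, 134 and 125. Its log2 ratio from day 0 to day 5 was 0.04 ± 0.39. KDM1B stood between 2.52 and 3.58. KDM2A and KDM2B, H3K36 demethylases of which KDM2B recruits a Polycomb complex to CpG islands, ranged from 15.5 to 32.3. KDM3A and KDM3B, H3K9 demethylases, ranged from 17.3 to 27.2, with positive log2 ratios from day 0 to day 5 of 0.58 ± 0.37 and 0.43 ± 0.39.

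Among arginine methyltransferases PRMT8 had a peak on day 3. PRMT8 (chromosome 12, 3490515 to 3703138), a membrane-anchored relative of PRMT1 known mainly from the nervous system, stood at 0.808 on day 0, 12.3 on day 3 and 2.04 on day 5. Its expression climbed 15.3-fold by day 3 (log2 3.93 ± 0.57) and then fell 6.05-fold (log2 -2.60 ± 0.51), both at q = 0.000596 from the authors' deposited table. On the scale of log2 FPKM plus 1, it ranked 71 of the 1297 genes called higher on day 3 with an FPKM of at least 1, and 68 of the 929 such genes called lower afterwards. PRMT8 remained above its day 0 level on day 5 (log2 1.34 ± 0.62, q = 0.0197 from the authors' deposited table). It was the one member called in all 3 comparisons.

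PRMT2, a nuclear receptor coactivator, was highest on day 5. It stood at 23.1, 33.2 and 41.0, and was called from day 0 to day 5 (log2 0.83 ± 0.39, q = 0.0155 from the authors' deposited table) and in neither single step. PRMT1 stood at 485, 392 and 348, with a log2 ratio of -0.48 ± 0.41 from day 0 to day 5 and no call. PRMT5, the main enzyme for symmetric arginine dimethylation, stood at 64.8, 76.8 and 54.5. With PRMT3, PRMT6 and PRMT7 it made 4 members whose log2 ratios lay between 0.04 and 0.25 by day 3 and between -0.51 and -0.34 from day 3 to day 5, none of them called. PRMT10 ranged from 4.50 to 5.90.

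The H3K4 methyltransferases of the MLL type did not pass the test. MLL, MLL2, MLL3 and MLL4, the catalytic subunits of COMPASS-like complexes, were between 3.04 and 10.5 on all days. Their log2 ratios from day 0 to day 5 lay between -0.31 and 0.60, positive for MLL, MLL2 and MLL3 and negative for MLL4. By position in the table, MLL2 is the gene on chromosome 12 now called KMT2D, and MLL4 the gene on chromosome 19 now called KMT2B. SETD1A, the most abundant of the H3K4 methyltransferases, stood at 11.6, 14.03 and 9.11 and was not called. SETD1B, its paralog, went from 3.10 to 5.45 and 4.03 (log2 0.81 ± 0.35 by day 3, q = 0.0385 from the authors' deposited table).

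SETD7, which monomethylates H3K4 and several other proteins, was called higher from day 3 to day 5 and over the whole course. It stood at 0.674 on day 0, 1.16 on day 3 and 3.10 on day 5 (chromosome 4, 140427192 to 140477577). The step to day 3 was not called (log2 0.78 ± 0.58, q = 0.135 from the authors' deposited table). Its unadjusted Cuffdiff p was 0.0372, and the 2 steps were not tested against each other. The step from day 3 to day 5 was 2.68-fold (log2 1.42 ± 0.50, q = 0.00157 from the authors' deposited table), and the whole course 4.60-fold (log2 2.20 ± 0.54). SETD7 was the only coding member called higher between day 3 and day 5. MLL5, a SET domain protein without a clear methyltransferase activity, stood at 8.81, 13.3 and 16.6 and was called over the whole course (log2 0.92 ± 0.37, q = 0.00647 from the authors' deposited table). Its relative SETD5 stood between 31.6 and 37.0.

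**Figure D2:**
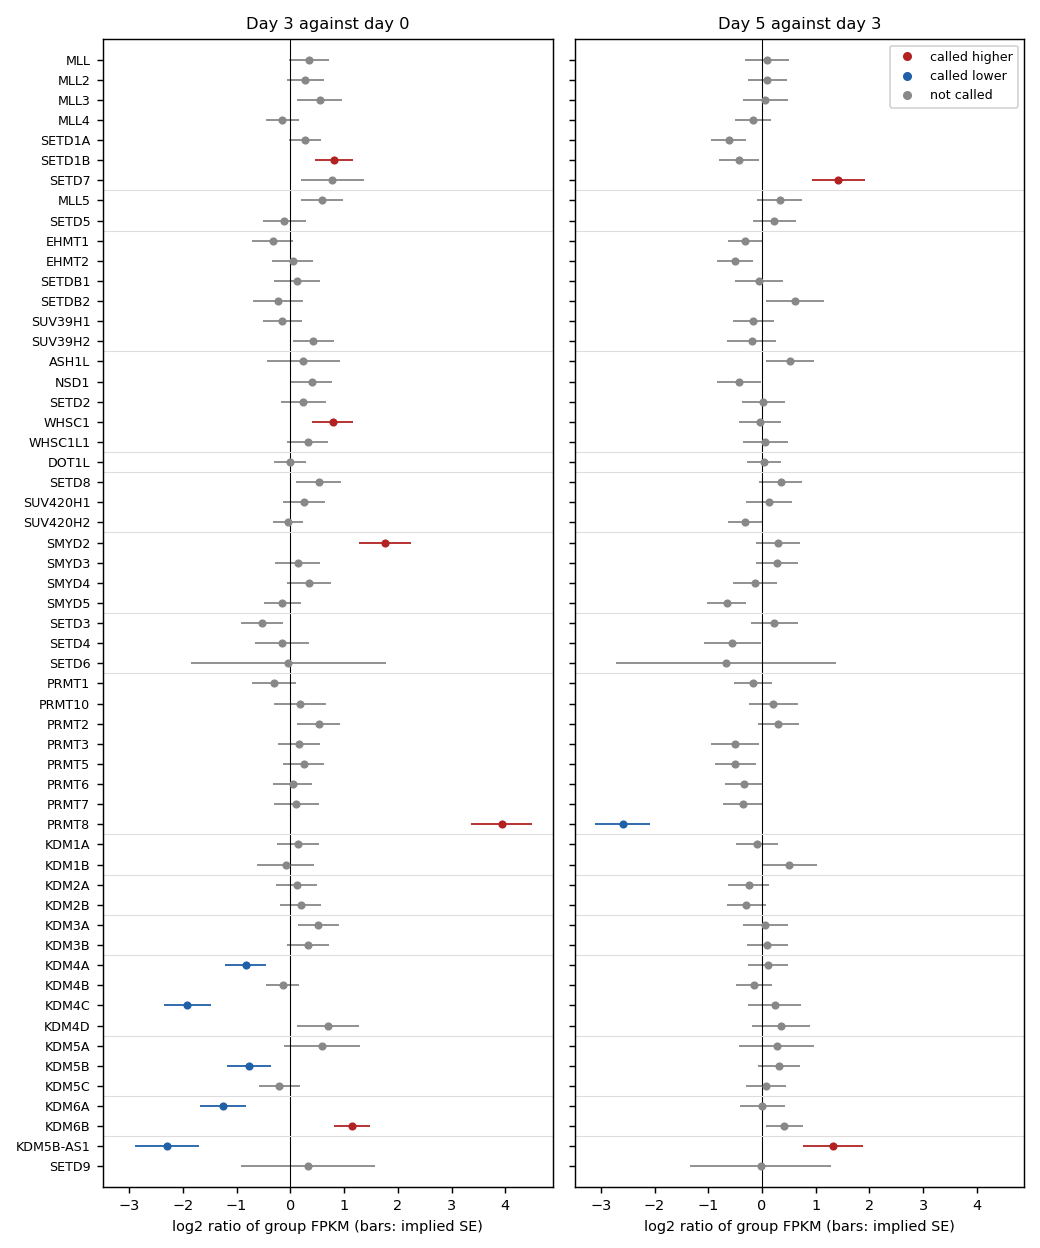
Log2 ratio of group FPKM for the 56 tested members, day 3 against day 0 (left) and day 5 against day 3 (right), with bars of 1 standard error implied by the deposited test statistic, and members ordered by role (lines separate the roles). Coloured points are those called at a q below 0.05, and 46 of the 56 on the left and 53 on the right are grey.

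SMYD2 rose within the SMYD family, whose members methylate histones and other proteins such as p53. SMYD2 (chromosome 1, 214454565 to 214510477) stood at 2.79 on day 0, 9.47 on day 3 and 11.6 on day 5. Expression rose 3.39-fold by day 3 (log2 1.76 ± 0.49, q = 0.0011 from the authors' deposited table) and was 4.17 times its day 0 level on day 5. SMYD5 went the other way, from 28.7 to 25.8 and 16.4, and was called from day 0 to day 5 (log2 -0.81 ± 0.36, q = 0.0225 from the authors' deposited table). SMYD3 ranged from 15.97 to 21.3 and SMYD4 from 5.66 to 7.18, both without a call.

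WHSC1 (also called NSD2; chromosome 4, 1873123 to 1983934), which dimethylates H3K36, went from 27.1 to 46.9 and 45.6. Its rise by day 3 (log2 0.79 ± 0.38, q = 0.0237 from the authors' deposited table) was held on day 5. The locus overlaps the small RNA gene SCARNA22, at 3.22, 13.9 and 1.95. The related NSD1 (15.7, 20.6 and 15.3) and WHSC1L1 (15.5, 19.4 and 20.3) were not called. Nor was SETD2, the enzyme of H3K36 trimethylation that travels with RNA polymerase, at 10.6, 12.5 and 12.7. ASH1L went from 3.73 on day 0 to 6.32 on day 5 without a call (q = 0.238 from the authors' deposited table for the whole course). ASH1L overlaps POU5F1P4, a pseudogene of POU5F1 that was listed at 131, 10.2 and 0.808, so its own value is uncertain.

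Among H4K20 methyltransferases SETD8, which monomethylates H4K20 in a cell-cycle-dependent way, went from 7.02 to 10.1 and 12.9. It was called from day 0 to day 5 (log2 0.88 ± 0.41, q = 0.0215 from the authors' deposited table) and in neither single step. SUV420H1 (19.5, 23.2 and 25.5) and SUV420H2 (17.3, 16.8 and 13.6), which add the further methyl groups, were not called. DOT1L, the H3K79 methyltransferase, stood at 18.3, 18.2 and 18.8, and its log2 ratio over the whole course was 0.04 ± 0.32.

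Cuffdiff called 0 of the 6 H3K9 methyltransferases in any comparison. Of all tested genes, 20.6% were called by day 3, 12.6% from day 3 to day 5 and 27.0% from day 0 to day 5. A normal p of the test statistic also called none of the 6, and EHMT1 over the whole course was the 1 case with an unadjusted Cuffdiff p below 0.05. EHMT2 (G9a), the most abundant of them, stood at 59.4, 61.2 and 43.1, and its partner EHMT1 (GLP) at 34.8, 27.7 and 22.3. EHMT1 had the lowest q over the whole course among tested members never called (log2 -0.64 ± 0.39, q = 0.0726 from the authors' deposited table). EHMT2 is placed on an alternative haplotype of chromosome 6 in the table. SUV39H1 (9.28, 8.35 and 7.45) and SUV39H2 (15.9, 21.3 and 18.7) make H3K9 trimethylation in heterochromatin, and SETDB1 (12.7, 13.8 and 13.3) does so at retroelements. The last of the group, SETDB2, ranged from 1.55 to 2.38. SETD3, an actin histidine methyltransferase, stood at 29.4, 20.5 and 24.0, SETD4 at 15.6, 13.99 and 9.53, SETD6 at 9.12, 8.89 and 5.60, and SETD9 at 3.21, 4.04 and 3.97, all without a call. SETD6 shares its locus with CNOT1 and had an implied error of 1.88 over the whole course, so little can be read from it. The same holds for SETD9, which overlaps MIER3 (7.64, 12.8 and 13.7) and had an implied error of 1.24.

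Steps of 2-fold or more were counted among the members, and the shares were not tested. By day 3, 6 of the 56 tested members differed at least 2-fold in FPKM (10.7%), against 23.5% of all tested genes. Of all tested genes at an FPKM of at least 1 on both days, 13.4% did so. That filter was not applied to the 10.7%, and PRMT8, at 0.808 on day 0, does not pass it. The 6 were PRMT8, SMYD2 and KDM6B upward, and KDM5B-AS1, KDM4C and KDM6A downward. From day 3 to day 5 the 3 called members were also the ones past 2-fold (5.36%), against 15.3% of tested genes and 8.04% of those at an FPKM of at least 1. The median log2 ratio of FPKM plus 1 over all 58 members was 0.14 by day 3 and 0.02 from day 3 to day 5, against 0.03 and -0.04 over all tested genes. By day 3, 1 of 15 tested lysine demethylases was called higher and 4 lower, as were 3 and 0 of 32 tested SET domain genes and DOT1L, and 1 and 0 of 8 arginine methyltransferases, beside 8.96% higher and 11.6% lower of all tested genes. From day 0 to day 5 the counts were 2 higher and 3 lower for the demethylases, 5 and 1 for the SET domain genes and DOT1L, and 2 and 0 for the arginine methyltransferases, beside 12.2% and 14.7%. The classes were not tested against each other.

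**Figure D3:**
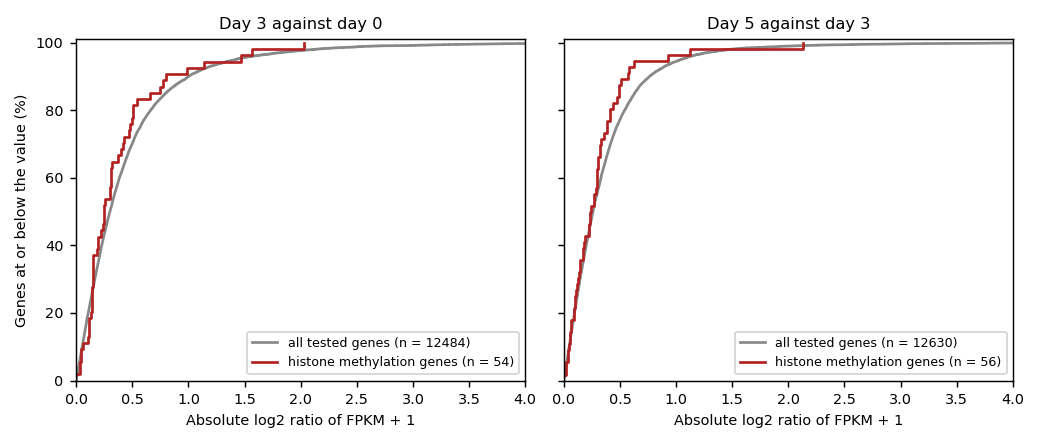
Cumulative share of genes by absolute log2 ratio of FPKM plus 1, for the members (red) and all tested genes (grey), both limited to genes at an FPKM of at least 1 on both days, which leaves out PRMT8 and SETD7 in the left panel. Over all 58 members, without that filter and with the untested SMYD1 and KDM4DL, the median absolute ratio was 0.25 by day 3 and 0.23 from day 3 to day 5. Over all tested genes without the filter it was 0.31 and 0.26, and over the grey genes 0.30 and 0.26.

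Calls were also counted in the 25 pairs of related genes, and some genes sit in more than 1 pair. Of single tested members, 17.9% were called by day 3 and 23.2% over the whole course. The shares of all tested genes were 20.6% and 27.0%. The pair of SMYD1 with SMYD2 counts below as having 1 called member, although SMYD1 was not tested. By day 3, 10 pairs had 1 called member and 2 had both. Over the whole course 8 pairs had 1 called member and 2 had both, namely KDM6A with KDM6B, and KDM4A with KDM4C. A call in 1 gene of a pair and not in the other does not show that they differ, and the differences were not tested. The widest gap among tested pairs by day 3 was between PRMT8 and PRMT1, 4.24 on the log2 scale, and the ratio of PRMT1 to PRMT8 went from 600.3 on day 0 to 31.8 on day 3 and 170 on day 5. SMYD2 stood at 0.17 of SMYD3 on day 0 and at 0.55 on day 5. KDM2A with KDM2B (gap of 0.03 over the whole course) and KDM3A with KDM3B (0.16) kept nearly the same ratio.

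**Figure D4:**
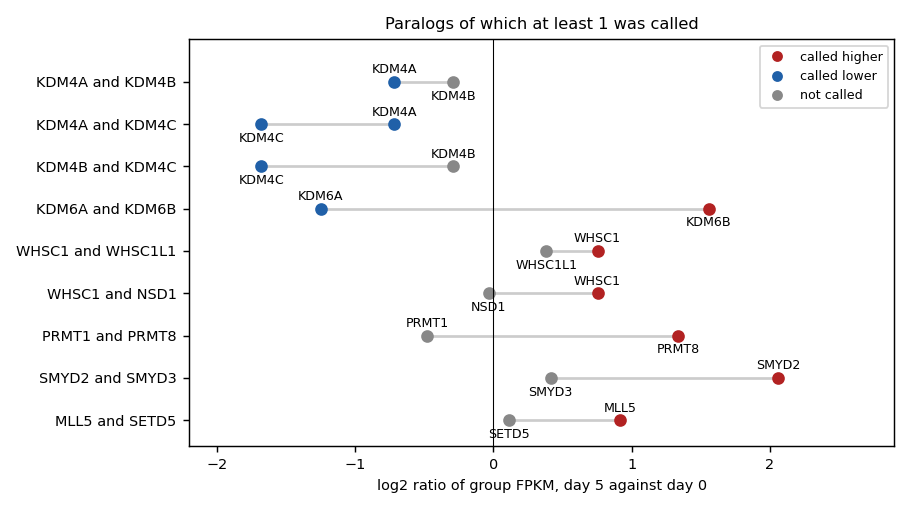
Log2 ratio of group FPKM on day 5 against day 0 for 9 pairs of related members of which at least 1 was called, 1 row per pair and 1 point per gene, coloured by the call, with no error bars. KDM6A and KDM6B lie on opposite sides of 0 at -1.25 and 1.56, while KDM4A and KDM4C both lie below 0.

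Genes that work with these enzymes were counted in the same way, in 8 lists. Of their 90 genes tested by day 3, 14 were higher (15.6%, against 8.96% of all tested genes) and 3 lower (3.33%, against 11.6%). Between day 3 and day 5, 3 of 92 were higher and 3 lower (3.26% each, against 5.93% and 6.68%). From day 0 to day 5, 12 of 92 were higher (13.0%, against 12.2%) and 5 lower (5.43%, against 14.7%). The lists were chosen with earlier results of these data known, and the shares were not tested against each other. Of 13 COMPASS subunits, which activate the MLL and SETD1 enzymes, 2 were higher by day 3 and none lower, NCOA6 going from 5.05 to 12.5 and HCFC2 from 0.488 to 1.08. Of 11 genes of PRC2, the complex that writes H3K27 methylation, EZH2 rose by day 3 from 29.3 to 55.5, and AEBP2 (14.6 to 6.50) and JARID2 (67.8 to 26.2) fell. Among 14 tested JmjC proteins outside the numbered KDM genes, JMJD1C fell by day 3 from 26.2 to 13.4 and none rose by then. From day 0 to day 5, PHF2 was called higher, and JMJD1C and C14orf169 were called lower. JMJD5 and JHDM1D, which later received the names KDM8 and KDM7A, were not called. Of 11 partners of H3K9 methylation, UHRF1, which links it to DNA methylation, rose from 24.3 to 51.6, and the heterochromatin protein gene CBX5 from 33.0 to 62.9.

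Of 6 tested partners of arginine methyltransferases, BTG1 and BTG2, which bind PRMT1, rose by day 3 from 8.33 to 17.6 and from 7.05 to 22.1, and BTG1 fell again to 9.38 by day 5. Among 22 readers of methylated histones 5 were higher and none lower by day 3, beside 8.96% higher and 11.6% lower of all tested genes. The 5 included PHF6 (21.7 to 54.5), the WNT cofactor PYGO1 (0.294 to 2.28) and BRPF3 (9.33 to 17.4). In the next step 1 reader was higher and 1 lower, beside 5.93% and 6.68% of all tested genes. Of 10 CoREST complex genes RCOR2 alone was called, going from 54.9 to 90.3 by day 3 and back to 53.8 by day 5. Of 3 other protein methyltransferases tested by day 3 PRDM2 rose, from 5.91 to 10.8. In the next step MECOM and PRDM16 rose while staying below an FPKM of 1.

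The labels of the groups were checked against markers. Of 7 ES cell markers 5 were lower by day 3, among them POU5F1 (1087 on day 0, 85.3 on day 3) and NANOG (40.8 and 0.659). SOX2 (203, 341 and 129) and LIN28A (396, 555 and 419) were not called by day 3, and SOX2 fell afterwards. Of 12 neural crest markers 11 rose between day 3 and day 5, with SOX10 (3.87 to 6.33) the one without a call. By day 3, 8 of 11 tested had already risen, and ETS1 and FOXD3 had fallen. Those 2 were not called on day 5 against day 0 (ETS1 7.27 and 6.14, FOXD3 17.9 and 15.4). All 9 neural plate border markers were higher by day 3, with PAX7 (0.715) and ZIC1 (0.483) still below an FPKM of 1. From day 3 to day 5, 4 of them rose and 4 fell. MSX1, PAX3 and PAX7 are in both lists.

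Markers of other cell types were mixed. Of 8 mesendoderm markers 6 were below an FPKM of 1 on all days, and the summed level of the 8 lay between 3.44 and 5.88. T, 1 of those 6, was called higher by day 3 (0.134 to 0.777) and lower from day 3 to day 5 (to 0.0566). TBX6 was called lower from day 0 to day 5 (3.81 to 1.11). Of 5 endothelial markers, summing to between 18.1 and 34.9, PECAM1, CDH5 and ERG were below 1 throughout, while by day 3 KDR fell from 22.2 to 3.14 and TEK rose from 12.2 to 21.5. The 8 neuron markers summed to between 165 and 301, most of it TUBB3 (202, 292 and 136). NEUROG2, NEUROD1, ISL1 and ELAVL4 were below 1 throughout, whereas POU4F1 rose from 0.139 to 5.71 and 26.3, and NEUROG1 reached 1.28 on day 5. DCX was called higher by day 3 (0.483 to 1.75) and lower from day 3 to day 5 (to 0.852). Of 7 nonneural ectoderm markers, summing to between 8.29 and 153, EPCAM fell from 150 to 4.01 by day 3, and GATA2, GATA3 and TFAP2C rose between day 3 and day 5 to 1.55, 1.84 and 7.68. In that list KRT8 and KRT18 were listed at 0 with a failed estimate. The part of these marker levels in the values of the members was not tested.

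The calls rest on the test of Cuffdiff as deposited. When p was instead computed from that test's statistic as if it were normally distributed, 13 of the 26 calls of members remained. The share of calls that remained over all genes was not computed, so this loss cannot be read as particular to the members. The 13 were those of KDM6A, KDM6B, KDM4C and SMYD2 on day 3 and day 5 against day 0, PRMT8 in both steps, SETD7 on day 5 against both other days, and KDM5B-AS1 by day 3. The calls of KDM4A, KDM5B, WHSC1, SETD1B, MLL5, PRMT2, SETD8, SMYD5 and KDM4D, the late rise of KDM5B-AS1 and the difference of PRMT8 between day 0 and day 5 were not among the 13.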

How the data were processed

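Poly-adenylated RNA of 6 libraries was measured, 2 each for day 0, day 3 and day 5. Per the submitters' processing notes, TopHat2 2.0.10 and Cuffdiff 2.1.1 were used with hg19; annotation, strandedness and read length were not given. The deposited table gives the authors' FPKM per gene and day, both libraries combined, the Cuffdiff test statistic (a score), and the p-value and q-value, all as deposited. The deposited q matched a Benjamini-Hochberg adjustment of p across all 48572 tested rows to 5.25e-07. No p was below 5e-05 (q of 0.000596), a value that 4078 rows hold, so genes at it have no order. Start positions in the table count from 0, and 1 was added before printing.

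From this, log2 ratios of group FPKM, the standard error implied by the statistic (log2 ratio divided by it), log2 ratios with a pseudocount of 1 for medians, and counts of calls at a q below 0.05 were computed with Python 3.11.15, pandas 2.3.3 and scipy 1.17.1. The adjustment was tested on simulated data. Named are members called, the most abundant of each role, both genes of a pair with a call, and up to 3 called genes per partner list. Members and lists were chosen with earlier results of these data known. Alternatives were a q of 0.01, a normal p, adjustment within a comparison, an FPKM filter, other pseudocounts, centring of ratios, and leaving out overlapping loci. Values per library were not used, so no replicate could be left out.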

Additional observations from a re-analysis of the deposited data

How the results depend on the processing

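No paired analysis was possible because the table gives 1 value per day, with the libraries combined, and for the same reason no replicate was left out. At a q below 0.01, members called higher and lower by day 3 numbered 3 and 3 in place of 5 and 5, from day 3 to day 5 members called higher numbered 1 in place of 2, and from day 0 to day 5 they numbered 4 higher and 2 lower in place of 9 and 4. With a normal p of the test statistic the same counts were 3 and 3, 1, and 3 and 2. Shares over all tested genes were not computed under either setting. Leaving out KDM5B-AS1, an alternative chosen after seeing the data, left 1 member higher between day 3 and day 5. Adjusting within each comparison, requiring an FPKM of at least 1 and leaving out overlapping loci kept every count within 1.5 times. The median log2 ratio of the members was small in every comparison and moved by over 1.5 times under several settings. It was 0.144 by day 3 and 0.0925 when centred. The centre taken off was larger than the median of 0.03 over all tested genes given above. It lay near 0.0517, the median without a pseudocount of genes at an FPKM of at least 1 on both days. From day 3 to day 5 the member median was 0.0179. It was 0.0319 with a pseudocount of 0.1, 0.0302 with an FPKM filter and 0.0784 when centred. From day 0 to day 5 it was 0.0525, and 0.0908 with that pseudocount and 0.0872 with that filter. It stayed above 0 under each of these settings and without a pseudocount. The causes of the lost calls were not tested.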
